A study of Mus musculus with 4 samples.

Results

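The antiviral genes that type I interferon induces were followed in mouse bone marrow macrophages given lipopolysaccharide (LPS) with or without immune complexes. The set was a list of 36 genes chosen by name for this function. For each gene, the probe sets annotated to it alone were taken, and the probe set with the highest mean signal over the 4 arrays stood for the gene. By this rule 33 of the 36 genes were measured, with 62 probe sets in all, among 18193 genes with a probe set of their own on the array. Isg15, Oas1g and Ifi44 had no such probe set. The 33 genes all passed the filter on low signals.

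The cells were grown from bone marrow for 7 days in medium with 20% L-cell conditioned medium and then primed with interferon-gamma, 100 U/ml overnight. After a wash, they were stimulated for 2 h with LPS at 10 ng/ml plus immune complexes (2 arrays, called type II activation in the series), or with LPS at 10 ng/ml alone (2 arrays, called classical activation). The labels give no strain, sex or age, and nothing in them tells whether replicates 1 and 2 of a group were independent cultures or animals. The p-values therefore measure only how far these arrays spread, partly pooled over other probe sets of like signal, and that spread may be technical. Both groups carried the interferon-gamma priming and the LPS, so the comparison shows the addition of immune complexes to cells that had received both inducers, and the induction of the antiviral genes itself was not measured.

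Type I interferons bind a receptor of the chains Ifnar1 and Ifnar2. The receptor's kinases Jak1 and Tyk2 activate a transcription complex that holds STAT2 and IRF9, and the complex binds the interferon-stimulated response element in the promoters of antiviral genes. In macrophages LPS acts through TLR4 and the adaptor TRIF to induce Ifnb1, and the secreted interferon-beta then drives the antiviral genes in the same cells. Interferon-gamma acts through another receptor and induces a set of genes that overlaps with these. Immune complexes, antibody bound to antigen, engage Fc gamma receptors.

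The arrays gave MAS 5.0 signals, with a trimmed mean of 500 on each array and no detection calls. Their number limits the precision. The arrays did not share a distribution at low signals: the 5th percentile with LPS plus immune complexes was 28.1 in replicate 1 and 3.3 in replicate 2, against 7.9 and 4.2 with LPS. Macrophage markers were 10 genes on the array, 9 of them above the filter. They summed to signals of 137500 and 159300 with LPS plus immune complexes and 159500 and 196600 with LPS. Markers of T, B, NK and mast cells, neutrophils, dendritic cells, fibroblasts and erythroid cells summed to between 56.4 and 776.4 per list and array, and the highest sum of each of these lists lay on LPS plus immune complexes replicate 1. The list for plasmacytoid dendritic cells summed to 8835 and 6864 with LPS plus immune complexes and 12520 and 7038 with LPS, and most of that was Bst2, which belongs to the antiviral set. In these bulk samples fewer cells with a transcript and less transcript per cell cannot be told apart.

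The response element was searched in the promoters that RefSeq gives for the set (GRCm38.p6, 250 bases before to 50 after each start). Promoters were given for 25 of the 36 genes. The letters GAAA, any 2 bases and GAAA again, or on the other strand TTTC, any 2 bases and TTTC, with overlapping matches allowed, occurred in 12 of the 30 promoters of these genes (40%), against 1131 of all 32851 promoters of the table (3.44%). The stretches around the matches are shown for Isg15, Ifit1, Rsad2 and Stat2, which stand for different roles, and for the Oas1a and Oas1g pair. They run 5′ to 3′ on the gene's strand, with the matches in capitals.
Isg15, chr4:156200835-156200936, minus strand: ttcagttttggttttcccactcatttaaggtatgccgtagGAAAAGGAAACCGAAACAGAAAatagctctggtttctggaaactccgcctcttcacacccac
Ifit1, chr19:34640745-34640853, plus strand: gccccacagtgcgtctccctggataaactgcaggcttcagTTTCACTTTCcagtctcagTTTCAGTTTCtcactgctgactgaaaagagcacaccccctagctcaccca
Rsad2, chr12:26456523-26456612, minus strand: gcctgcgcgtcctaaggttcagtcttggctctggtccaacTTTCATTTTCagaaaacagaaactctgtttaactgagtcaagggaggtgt
Stat2, chr10:128270248-128270325, plus strand: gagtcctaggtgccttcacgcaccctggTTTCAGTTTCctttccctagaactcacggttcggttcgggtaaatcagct
Oas1a, chr5:120907490-120907585, minus strand: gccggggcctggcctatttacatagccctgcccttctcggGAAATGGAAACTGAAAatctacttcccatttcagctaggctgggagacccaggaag
Oas1g, chr5:120887576-120887671, minus strand: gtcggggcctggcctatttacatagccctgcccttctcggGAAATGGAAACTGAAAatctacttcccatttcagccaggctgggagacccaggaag
Isg15 held 3 overlapping matches, the first of which began 78 bases before the start, and Ifit1 held 2, at 104 and 85 bases before it. The Rsad2 match began 120 bases and the Stat2 match 222 bases before the start. The same capital letters stood in Oas1a and Oas1g, where they began 20 and 18 bases before the start. The 10 measured genes with a match had a median log2 fold change of -0.29 (range -0.46 to -0.05), and the 12 measured genes with a promoter and no match had -0.10 (range -0.63 to 0.31). The difference between these medians was not tested. Measured genes without a promoter, such as Mx1 and Usp18, fall outside both. Genes on both sides changed sign with quantile normalization or with 1 array left out. A match describes the letters and is not evidence of binding.

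None of the 33 antiviral genes passed the test when immune complexes were added. Most lay slightly lower: 27 had a log2 fold change below 0 and 6 above 0, with a median of -0.18 (range -0.70 to 0.31), against a median of 0.07 over all 27022 tested probe sets. Values below 0 made up 44.1% of all tested probe sets. Values on the log2 scale are of signal + 32, as LPS plus immune complexes minus LPS. Among the 9703 tested probe sets with a mean signal of at least 500, which include every measured antiviral gene, the median was -0.09 and 61.5% lay below 0. The antiviral genes had a median signal percentile of 97.3 among all probe sets, and 13 had a mean signal of at least 10000. The cutoff of 500 is only a floor and does not match the 9703 probe sets to them on signal. The limma test, with Benjamini-Hochberg adjustment over all tested probe sets and a threshold of 0.05, called 0 of the 33 genes higher, against 12 probe sets in all (0.0444%), and 0 lower, against 2 probe sets in all (0.0074%). Every adjusted p of the set was 1 in this limma fit, and none of the 33 had an unadjusted p under 0.05, the lowest being 0.0516 for Mx1. Among the 27022 tested probe sets, 503 higher and 256 lower had an unadjusted limma p under 0.05. Such values were thus rare among all probe sets too, and their absence from 33 genes sets the genes little apart. The split of 6 above and 27 below 0 became 13 and 20 with quantile normalization and 3 and 30 with median centring of the arrays, which moved the median of all tested probe sets to -0.03 and -0.13. A log2 fold change smaller than 0.5 in size was found for 29 of the 33 genes, against 71% of all tested probe sets and 84% of those of at least 500. Relative to the median of all tested probe sets, the median of the set was -0.25 as deposited, -0.06 with quantile normalization and -0.25 with median centring. A test that a gene missed does not show equal levels. The 95% interval of the log2 fold change held 0 for all 33 genes, lay between -1 and 1 for 20 of them, and stayed under 1 for 32.

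**Figure D1:**
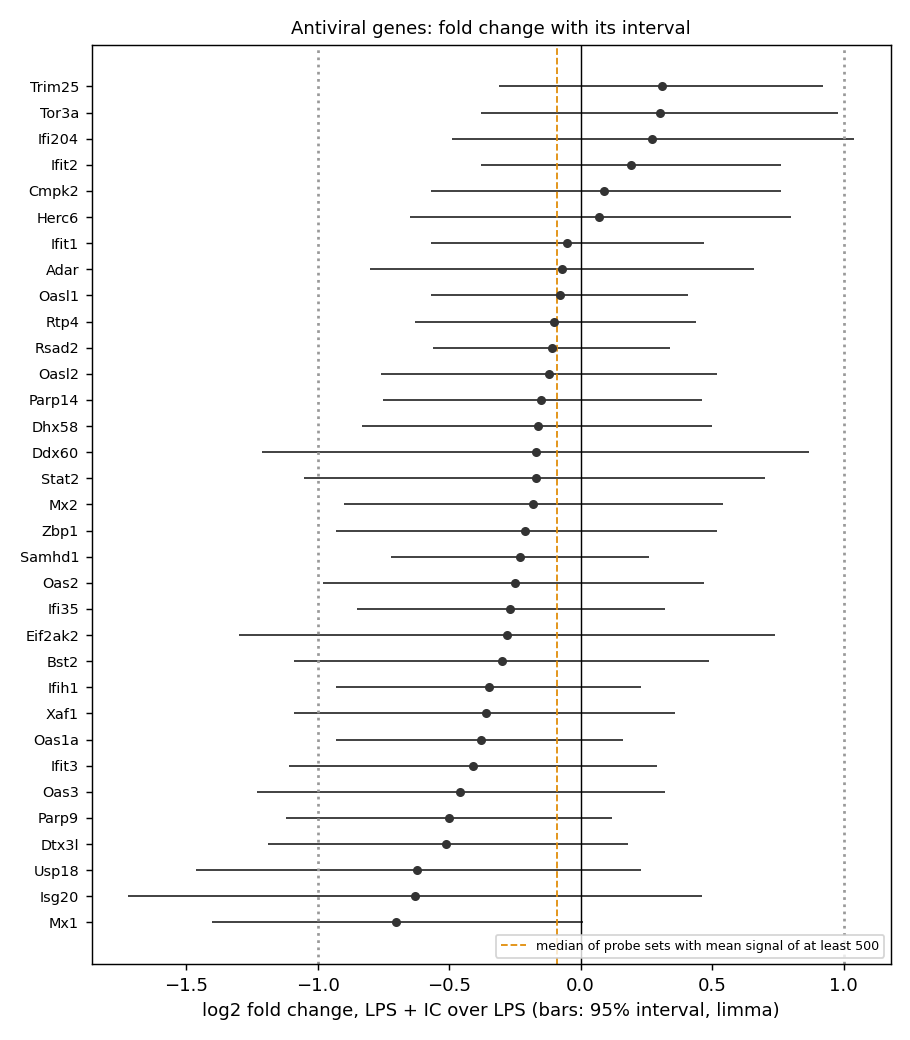
Log2 fold change of the 33 antiviral genes for LPS plus immune complexes over LPS (horizontal axis), as points with the 95% interval of the limma fit as bars, one gene per line. Dotted lines mark -1 and 1 and the dashed line the median of -0.09 over probe sets with a mean signal of at least 500; every bar crosses 0, and all but that of Ifi204 end below 1.

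The same-numbered pairs gave different pictures. In replicate 1, LPS plus immune complexes was below LPS for 30 of the 33 genes, with a median log2 difference of -0.47, while 41% of all tested probe sets and 64.5% of those with a mean signal of at least 500 were lower in that pair. In replicate 2, 14 of the 33 genes were lower, with a median difference of 0.04, against 55.3% of all tested probe sets and 53.2% of those of at least 500. Both pairs were lower for 13 genes (24.1% of all tested probe sets and 39% of those of at least 500) and higher for 2 (27.8% and 21.4%). The other 18 genes had pairs of opposite sign. The first LPS array held the highest signal of the 4 for 20 of the 33 genes, against 19.9% of all tested probe sets and 28.6% of those of at least 500. The first LPS plus immune complexes array held the lowest for 17, against 24.7% and 42.7%. Without the first LPS array the median of the set was -0.09, next to 0.07 over all tested probe sets, with 16 genes above and 17 below 0. Without the first LPS plus immune complexes array it was also -0.09, with 11 above and 22 below, next to a median of -0.05 over all tested probe sets. Relative to all tested probe sets, the set was at -0.16 without the first LPS array and -0.03 without the first LPS plus immune complexes array. Without replicate 2 of LPS plus immune complexes the median of the set was -0.25, and without replicate 2 of LPS it was -0.26. Both lay further below 0 than the -0.18 with all arrays, and their values relative to all tested probe sets are not given here. With 1 array left out, the median over all tested probe sets ranged from -0.05 to 0.20.

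**Figure D2:**
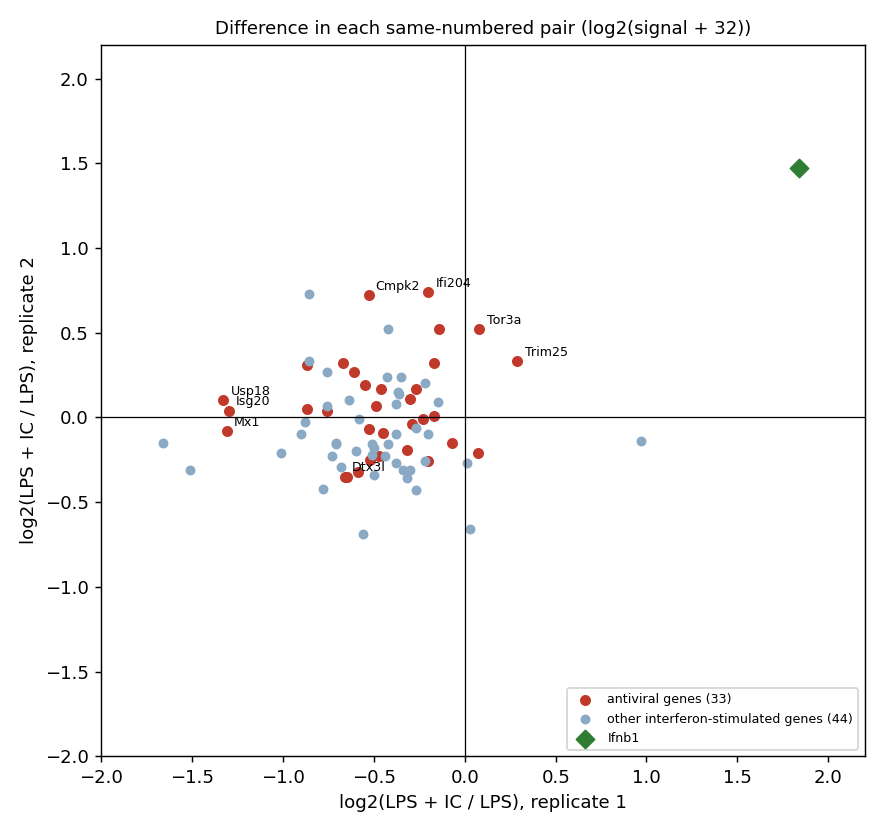
Log2 difference between LPS plus immune complexes and LPS in replicate 1 (horizontal axis) and in replicate 2 (vertical axis), on log2(signal + 32), for the 33 antiviral genes, 44 other interferon-stimulated genes and Ifnb1. Most antiviral genes lie left of 0 (30 of 33) and on both sides of 0 vertically (14 below and 19 above), while Ifnb1 stands alone at 1.84 and 1.47.

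Signals of all 4 arrays kept the groups apart for 9 of the 33 genes. The LPS plus immune complexes arrays were both lower for 8 (12% of all tested probe sets and 18.4% of those with a mean signal of at least 500) and both higher for 1 (13.6% and 11.1%). The 8 were Mx1, Oas1a, Oas2, Samhd1, Ifih1, Dhx58, Parp9 and Dtx3l, and the 1 was Tor3a. With quantile normalization the counts were 4 lower and 4 higher, for which no share over all tested probe sets is given here.

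**Figure D3:**
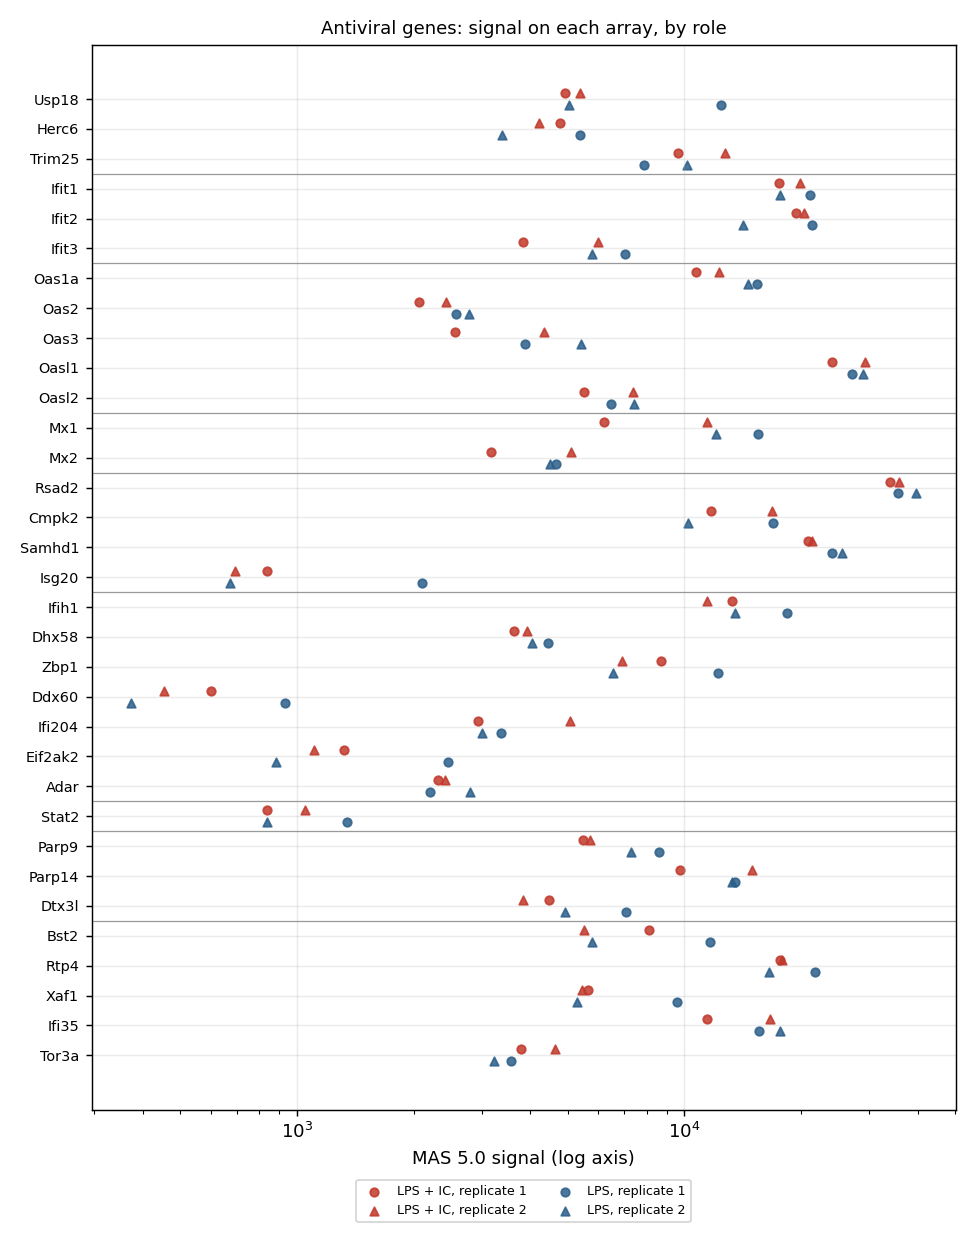
MAS 5.0 signal of each measured antiviral gene on each of the 4 arrays (horizontal log axis), one gene per line, grouped by role with lines between the roles; red symbols are LPS plus immune complexes, blue symbols LPS, circles replicate 1 and triangles replicate 2. For 20 of the 33 genes the rightmost symbol is the circle of LPS replicate 1.

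The genes of the ISG15 system attach a ubiquitin-like protein to other proteins or remove it. Usp18, which takes ISG15 off its targets and also dampens signalling at the interferon receptor, had signals of 4928 and 5377 with LPS plus immune complexes, against 12411 and 5032 with LPS. The first LPS array stood alone, and the other 3 readings lay close together. The log2 fold change of Usp18 was -0.62 ± 0.39 (SE) with a limma adjusted p of 1, and 0.03 without the first LPS array. Trim25, a ubiquitin ligase that acts in RIG-I signalling, had 9612 and 12734 with LPS plus immune complexes, against 7871 and 10141 with LPS. It was higher in both pairs, by 0.29 and 0.33 on the log2 scale, and its groups overlapped. Its other probe sets read 8540 and 10709 against 6346 and 6578, and 2790 and 2176 against 2150 and 1147, with no overlap in either. Their log2 fold changes were 0.56 ± 0.28 and 0.64 ± 0.39 (SE), with limma adjusted p of 1. Herc6, the main ligase for ISG15 in mouse, had 4780 and 4210 against 5372 and 3376, with the LPS plus immune complexes readings inside the range of LPS. ISG15 itself was read only by a probe set shared with the annotated gene Gm9706, at 16163 and 15347 with LPS plus immune complexes and 20162 and 14294 with LPS, and these readings overlapped too.

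The IFIT proteins bind viral RNA and hold back its translation. Ifit1, which recognises RNA whose cap lacks a methyl group, had 17508 and 19854 with LPS plus immune complexes, against 21122 and 17603 with LPS, a log2 fold change of -0.05 with a 95% interval from -0.57 to 0.47. Ifit2 had 19355 and 20299 against 21288 and 14128, and here the lowest reading was the second LPS array. Ifit3 had 3834 and 5986 against 7011 and 5767, a log2 fold change of -0.41 ± 0.32 (SE). All 3 IFIT genes were lower in replicate 1 and higher in replicate 2.

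The OAS proteins make 2′-5′ oligoadenylates that activate the ribonuclease RNase L. In mouse the OAS-like protein Oasl2 keeps this activity, while Oasl1 lacks it and restrains translation of Irf7. All 5 measured members had log2 fold changes below 0, from -0.46 for Oas3 to -0.08 for Oasl1, and with quantile normalization Oasl1 and Oasl2 turned to 0.15 and 0.02. Oas1a had 10725 and 12292 with LPS plus immune complexes, against 15424 and 14589 with LPS. The groups did not overlap, and the log2 fold change was -0.38 ± 0.25 (SE) with a limma adjusted p of 1. Oas2 had 2068 and 2430 against 2582 and 2774, also without overlap. Oas3 had 2562 and 4335 against 3884 and 5423, lower in both pairs but with overlap. Oasl1 had 24078 and 29174 against 27059 and 28953, and Oasl2 had 5507 and 7377 against 6466 and 7404. Oas2 and Oas3 are neighbours on chromosome 5 in RefSeq, as are Oasl2 and Oasl1.

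The Mx proteins are dynamin-like GTPases that block viral replication, and many laboratory mouse strains carry a defective Mx1 gene. Mx1 had the lowest log2 fold change of the set, -0.70 ± 0.32 (SE), with a 95% interval from -1.40 to 0.01 and a limma adjusted p of 1. Its signals were 6208 and 11411 with LPS plus immune complexes, against 15466 and 12047 with LPS. The groups did not overlap, but the pairs differed by -1.31 and -0.08, so replicate 1 carried nearly all of the difference. Mx2 had 3171 and 5111 against 4653 and 4486, and its groups overlapped.

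Rsad2, or viperin, turns CTP into a chain-terminating nucleotide, and the neighbouring gene on chromosome 12, Cmpk2, is a nucleotide kinase. Rsad2 had 33841 and 35774 with LPS plus immune complexes, against 35569 and 39637 with LPS, a log2 fold change of -0.11 with the 95% interval from -0.56 to 0.34. A second Rsad2 probe set gave -0.04, and the other gave 0.43 ± 0.34 (SE), with 1 low reading of 11567 on the second LPS array. Cmpk2 had 11719 and 16801 against 16880 and 10221, so the pairs went in opposite directions, by -0.53 and 0.72. A second Cmpk2 probe set gave 0.41 ± 0.77 (SE), with its highest and lowest readings on the LPS arrays. Samhd1, which removes dNTPs, had 20859 and 21291 against 24039 and 25526, with replicates close together in each group, no overlap and a log2 fold change of -0.23 ± 0.22 (SE). Of its other 4 probe sets 2 gave -0.22 and -0.29, and 2 gave 1.06 and 1.04 through high readings on a single array: 1 read 12839 and 2322 with LPS plus immune complexes, against 2422 and 2812 with LPS, and another read 9301 and 2448 against 2330 and 2298. Isg20, an exonuclease that degrades RNA, had 839.9 and 691.2 against 2108 and 672, and its log2 fold change was -0.63 ± 0.50 (SE) with all arrays and 0.17 without the first LPS array.

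Sensors of nucleic acids made up 7 of the measured genes. Ifih1, or MDA5, a sensor of long double-stranded RNA, had 13241 and 11451 with LPS plus immune complexes, against 18350 and 13466 with LPS, without overlap, and a log2 fold change of -0.35 ± 0.26 (SE). Dhx58, or LGP2, which regulates MDA5 and RIG-I, had 3641 and 3927 against 4446 and 4035, again without overlap but with a difference of only -0.16. Dimmer Dhx58 probe sets gave -0.10 and 0.70, the second through a reading of 686.7 in LPS plus immune complexes replicate 1, where replicate 2 had 99. Eif2ak2, or PKR, which halts translation on double-stranded RNA, had 1325 and 1105 against 2452 and 884.6. The LPS readings of Eif2ak2 differed by 2.77-fold and enclosed both of the others, and without the first LPS array its log2 fold change was 0.44 in place of -0.28. Zbp1, a sensor of Z-form nucleic acid, had 8713 and 6897 against 12234 and 6553, and Ddx60, a helicase, had 600.3 and 455.4 against 931.7 and 373.4. Both repeated that order, with the first LPS array highest and the second lowest. A second Zbp1 probe set gave -0.31 ± 0.31 (SE) without overlap. Ifi204, a DNA-binding protein of the p200 family, had 2925 and 5057 against 3370 and 3008, and its log2 fold change of 0.27 ± 0.35 (SE) rested on the second LPS plus immune complexes array, without which it was -0.12. Adar, which edits double-stranded RNA, had 2315 and 2407 against 2200 and 2794.

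Stat2 was the transcription factor of the set. It had 838.5 and 1051 with LPS plus immune complexes, against 1349 and 837.1 with LPS, so the groups overlapped and the pairs differed by -0.67 and 0.32. Parp9 and Dtx3l form a complex that joins ADP-ribose and ubiquitin, and with Parp14, another ADP-ribosyltransferase, they lie next to each other on chromosome 16. Parp9 had 5480 and 5696 against 8599 and 7283, without overlap. Its log2 fold change was -0.50 ± 0.28 (SE) with a limma adjusted p of 1. Dtx3l, beside it, had 4465 and 3843 against 7081 and 4919, also without overlap, and -0.51 ± 0.32 (SE). The pairs were close for both genes, at -0.65 and -0.35 for Parp9 and -0.66 and -0.35 for Dtx3l. A second Dtx3l probe set gave -0.16 without overlap. Parp14, the other neighbour of Dtx3l, had 9767 and 14955 against 13480 and 13294, and its readings overlapped.

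The other effectors were membrane, nuclear and signalling proteins. Tor3a, an ATPase of the endoplasmic reticulum, had 3785 and 4633 with LPS plus immune complexes, against 3570 and 3225 with LPS, and its log2 fold change was 0.30 ± 0.31 (SE) with a limma adjusted p of 1. Another Tor3a probe set gave 0.32 and the other 0.16, with overlapping groups. Bst2, or tetherin, which holds budding virus at the cell surface, had 8083 and 5508 against 11655 and 5789. Xaf1, an antagonist of the apoptosis inhibitor XIAP, had 5634 and 5439 against 9592 and 5287. For both, the first LPS array stood above the other readings, and without it their log2 fold changes were 0.20 and 0.07. A dimmer Xaf1 probe set went the other way without overlap, at 253.5 and 161.5 with LPS plus immune complexes and 110.4 and 128 with LPS, a log2 fold change of 0.64 ± 0.53 (SE). Rtp4 had 17613 and 17883 against 21764 and 16546, with the same array highest. Ifi35 had 11405 and 16633 against 15554 and 17661, and all 3 of its probe sets had values below 0, from -0.49 to -0.27.

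The LPS replicates differed by at least 2-fold for 5 of the 33 genes (15.2%), against 24.8% of all tested probe sets and 13.2% of those with a mean signal of at least 500. They were Isg20, Eif2ak2, Ddx60, Usp18 and Bst2, all with the higher reading on the first LPS array, at ratios from 2.01 to 3.14. The LPS plus immune complexes replicates differed that far for 0 of the 33, against 36.2% and 9.79%, and their largest ratio was 1.84, for Mx1. The first LPS array was above the second for 24 of the 33 genes (72.7%), against 49.8% of all tested probe sets and 44.1% of those of at least 500.

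The upstream genes were described with 7 lists of the pathway, of which 100 genes were on the array and 96 passed the filter. None of the 96 passed the limma test in either direction, and every adjusted p was 1. Ifnb1, the interferon that LPS induces first, stood out in size: 4574 and 1373 with LPS plus immune complexes, against 1253 and 476.9 with LPS. Both pairs were higher, by 1.84 and 1.47, and the groups did not overlap. Its log2 fold change was 1.65 ± 0.57 (SE), with a 95% interval from 0.41 to 2.90, an unadjusted limma p of 0.0134 and an adjusted p of 1. Without the first LPS array it was 2.32 with a limma adjusted p of 0.00154, while without any other array it did not pass, at 0.80 without LPS plus immune complexes replicate 1, 2.51 without LPS plus immune complexes replicate 2 and 0.99 without LPS replicate 2. On the probe sets that stand for the antiviral genes, the highest log2 fold change in the same arrays was 0.31, for Trim25. Of the alpha interferons, Ifna1, Ifna4 and Ifnab lay below the filter. Ifna2 passed it, with 641.7 and 17.9 with LPS plus immune complexes, against 313.4 and 165.8 with LPS. Its pairs went in opposite directions, by 0.96 and -1.99, and its log2 fold change was -0.51 ± 0.92 (SE).

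Both chains of the type I interferon receptor read lower with immune complexes, without overlap. Ifnar1 had 1326 and 2544 with LPS plus immune complexes, against 3003 and 3056 with LPS, a log2 fold change of -0.71 ± 0.38 (SE). Ifnar2 had 5232 and 7040 against 8690 and 7435, at -0.40 ± 0.29 (SE). Neither passed the limma test, and the differences in replicate 2 were -0.26 and -0.08. Of the 6 tested ligands and receptors 3 (50%) were lower without overlap, against 12% of all tested probe sets, and 1 was higher. The list of 12 transducers and factors had a median of -0.20, with 10 below 0 (8 with quantile normalization and 12 with median centring) and 6 without overlap on the lower side, against 12% of all tested probe sets and 18.4% of those with a mean signal of at least 500. Irf8, a myeloid factor that interferon-gamma induces, had 8089 and 12961 against 15784 and 17641, at -0.70 ± 0.29 (SE). Jak2, a kinase of the interferon-gamma receptor, had -0.60 ± 0.31 (SE). Irf7, which amplifies type I interferon, had 10050 and 11824 against 12733 and 14332, at -0.31 ± 0.26 (SE), without overlap. Irf9, the DNA-binding partner of STAT2, had 1567 and 1616 against 1829 and 1292, at 0.05 ± 0.36 (SE).

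**Figure D4:**
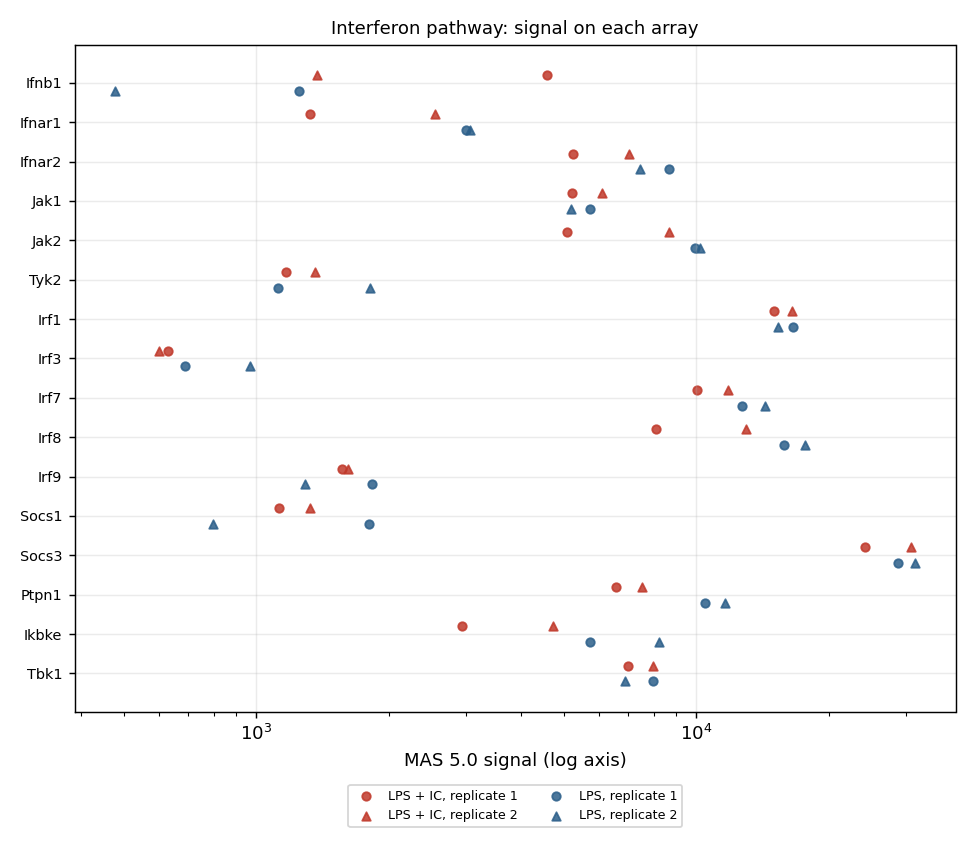
MAS 5.0 signal of interferon pathway genes on each of the 4 arrays (horizontal log axis), one gene per line; red symbols are LPS plus immune complexes, blue symbols LPS, circles replicate 1 and triangles replicate 2. Both red symbols lie right of both blue ones for Ifnb1 (4574 and 1373 against 1253 and 476.9). They lie left of both blue ones for Ifnar1, Ifnar2, Jak2, Irf3, Irf7, Irf8, Ptpn1 and Ikbke.

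Inhibitors of the pathway were mixed, with 4 of 10 above and 6 below 0 (8 below with median centring) and a median of -0.17. Of the 10, 4 (40%) were lower without overlap, against 12% of all tested probe sets and 18.4% of those of at least 500. Without overlap 2 were higher, against 13.6% and 11.1%. Socs1, which blocks the receptor kinases, had 1123 and 1321 with LPS plus immune complexes, against 1805 and 797.8 with LPS, an overlap with a log2 fold change of 0.02. Pias3 and Cish had the largest sizes of that list, at 0.96 ± 0.56 and -0.74 ± 0.41 (SE). Of the 8 genes between TLR4 and Ifnb1, 4 were above and 4 below 0 (5 below with median centring). Without overlap 3 of the 8 (37.5%) were lower and 0 higher. Ikbke, a kinase that activates interferon regulatory factors, had 2927 and 4728 against 5747 and 8213, at -0.88 ± 0.34 (SE), and its partner Tank had 0.64 ± 0.44 (SE). The 9 sensors and adaptors of nucleic acids had a median of 0.07 with 4 below 0 (5 with median centring). Without overlap 0 of the 9 were lower and 1 was higher. Tlr9 had 0.71 ± 0.66 and Ddx58, or RIG-I, had -0.37 ± 0.36 (SE), and in both of them the groups overlapped.

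A list of other interferon-stimulated genes also lay mostly below 0. Of 44 tested genes 42 had log2 fold changes below 0 (37 with quantile normalization and 31 without the first LPS array). Their median was -0.32. Values below 0 made up 44.1% of all tested probe sets and 61.5% of those with a mean signal of at least 500. Of the 44 genes 21 (47.7%) were lower without overlap, against 12% and 18.4% of these probe sets. Some of the 44, such as Sp110 at 396.7, had a mean signal below 500. Trim21, an antibody receptor and ubiquitin ligase of the cytosol, had 1292 and 1767 with LPS plus immune complexes, against 3728 and 2203 with LPS, at -0.91 ± 0.38 (SE). Slfn1 had 733.7 and 1016 against 2394 and 1135, also at -0.91, and neither passed the limma test. The 9 GTPases that interferon-gamma induces, which defend against intracellular microbes, had a median of -0.13 with 3 above and 6 below 0, and a median of 0.01 with 6 above and 3 below with quantile normalization, and all 9 below 0 with median centring. Gbp3 and Gbp7 had the largest sizes among them, at -0.37 ± 0.26 and -0.28 ± 0.25 (SE). Gbp2 and Gbp3 belong to both of these lists. Of the 9 GTPases 3 (33.3%) were lower without overlap, against the same 12% and 18.4%, and 0 were higher.

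**Figure D5:**
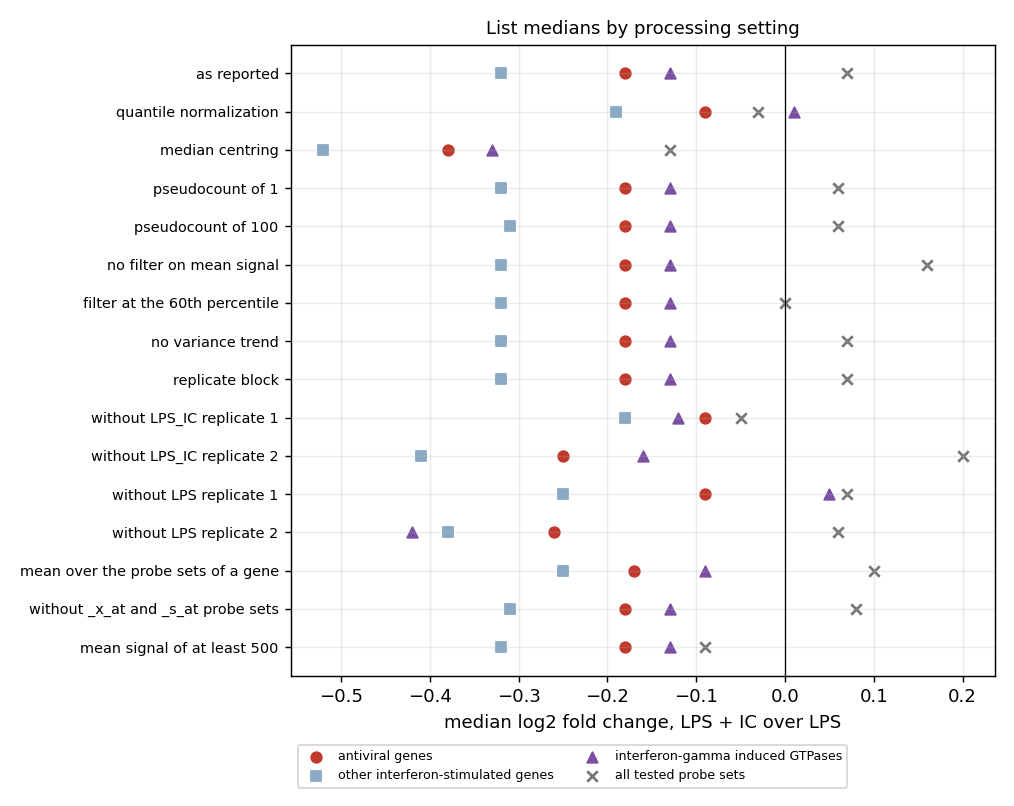
Median log2 fold change for LPS plus immune complexes over LPS (horizontal axis) of the 33 antiviral genes, 44 other interferon-stimulated genes, 9 interferon-gamma induced GTPases and all tested probe sets, under the processing used here (top line) and each alternative. The antiviral genes stay between -0.38 and -0.09, and the GTPases cross 0 with quantile normalization (0.01) and without LPS replicate 1 (0.05).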

How the data were processed

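Biotin-labelled RNA from 4 samples was read on a mouse Affymetrix array of 45037 probe sets and 64 controls. The deposited values are intensities on a linear scale, made by the authors with MAS5 version 5.0, per the submitters' processing notes. The values themselves show a scaling of each array to 1 trimmed mean, which sets the level of bright signals and does not align low ones. No 2 arrays shared more than 74 identical values. Groups and replicate numbers come from the titles.

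The test used the 27022 probe sets, controls excluded, whose mean signal reached the 40th percentile (69.7). The difference between the groups was fitted on log2(signal + 32), which understates changes of dim probe sets. The fit used limma 3.58.1 (R 4.3.3) with a variance trend and without a block (two-sided). It draws each probe set's spread toward that of others of like signal (prior of 9.871 degrees of freedom). An SE can therefore differ from a gene's own spread. Simulated data, drawn as independent noise from the fitted spread without a replicate effect, cannot show how the method behaves on these arrays. Genes were named from GEO's annotation of the array, which gives 1 gene for 34945 probe sets, several for 932 and none for 9160. The 119 names in the pathway lists gave 100 genes on the array, with older names matched through RefSeq's gene table. A gene listed under an older and a current name counted once among the 100.

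The antiviral genes, the pathway lists and the marker lists were chosen with earlier results of these data known, so no list was tested as a list. All 33 measured antiviral genes are named. Of the pathway lists, Ifnb1, Ifnar1, Ifnar2, Irf7, Irf9, Socs1 and the 2 genes of each list with the largest size are named with their fold changes, and 1 further gene of that rule was not analysed here. Alternatives were quantile normalization, median centring, pseudocounts of 1 and 100, other filters, no variance trend, the replicate number as a block, leaving out each array, averaging a gene's probe sets and leaving out probe sets that can bind several transcripts. A filter at a mean signal of 500 was added after the data had been seen.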

Additional observations from a re-analysis of the deposited data

How the results depend on the processing

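No antiviral gene passed the limma test under any alternative except the replicate block. The median of the set stayed below 0 under every alternative run. With the replicate block (replicate number in the fit), 0 antiviral genes were called higher and 2 lower. In all, 404 probe sets were called higher and 267 lower. The 2 were Mx1 at -0.70 (limma adjusted p = 0.00245) and Usp18 at -0.62 (limma adjusted p = 0.04). The pairs of Usp18 had opposite signs, at -1.33 and 0.10, and those of Mx1 were -1.31 and -0.08. Their blocked SEs of 0.19 for Usp18 and 0.17 for Mx1 therefore lean on spread borrowed from other probe sets. Of the pathway lists 1 gene was higher, Ifnb1 at 1.65 (limma adjusted p = 6.74e-08), and 8 lower. The labels give no shared source for same-numbered arrays. Their deviations from the group means correlated at 0.38 across probe sets. On the log2 scale, same-numbered arrays correlated at 0.908 (replicate 1) and 0.965 (replicate 2). The 2 arrays of a group did so at 0.886 with LPS plus immune complexes and 0.933 with LPS. Replicate 2 of LPS plus immune complexes and replicate 1 of LPS gave 0.935, and the remaining combination 0.873. With 2 pairs such numbers do not show pairing. The block moved no fold change.

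All probe sets called, 12 higher and 2 lower as reported, were 0 and 0 with quantile normalization, without the variance trend and at a mean signal of at least 500, 33 and 14 with median centring, 20 higher with a pseudocount of 1, 6 and 0 with a pseudocount of 100, 68 and 21 without a filter, 4 and 0 with the 60th percentile as filter, and 25 and 5 with probe sets averaged per gene. Leaving out 1 array gave 0 to 77 higher and 0 to 32 lower.

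Antiviral genes without overlap were 4 higher and 4 lower with quantile normalization and 0 higher with median centring. Without probe sets that can bind several transcripts 2 were higher. With 1 array left out, from 1 to 11 were higher and from 9 to 22 lower. There 1 array stands for a group, so the groups separate more easily. Shares over all probe sets are not given for these settings, so these counts cannot be judged against them. Those higher in both pairs were 7 with quantile normalization and 0 with median centring, and no such count exists without an array.

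List medians moved with median centring, to -0.65 for ligands and receptors, -0.36 for inhibitors, -0.30 for the TLR4 arm, -0.13 for sensing adaptors and -0.33 for the GTPases, which were at 0.01 with quantile normalization. Ligands and receptors were at -0.28 with a pseudocount of 100 and -0.13 without a filter, and sensing adaptors at -0.10 without probe sets that can bind several transcripts. Leaving out 1 array gave -0.61 to -0.23 for ligands and receptors, -0.42 to 0.05 for the GTPases, -0.21 to 0.12 for sensing adaptors, and 0 to 1 pathway gene called higher.

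Signs turned for genes that were not called in the reported fit. Of these Usp18, called only with the replicate block, turned without the first LPS array. With quantile normalization these were Ifit1 (0.11), Oasl1 (0.15), Oasl2 (0.02), Rsad2 (0.13), Adar (0.02), Parp14 (0.01) and Rtp4 (0.05). With median centring they were Herc6 (-0.12), Ifit2 (-0.00), Cmpk2 (-0.10), Irf9 (-0.15) and Socs1 (-0.18). With the mean over probe sets they were Samhd1 (0.27), Dhx58 (0.15), Rsad2 (0.09) and Xaf1 (0.14). With 1 array left out the ranges were -0.24 to 0.10 for Adar, -0.80 to 0.20 for Bst2, -0.27 to 0.46 for Cmpk2, -0.80 to 0.45 for Ddx60, -1.0 to 0.44 for Eif2ak2, -0.26 to 0.41 for Herc6, -0.12 to 0.66 for Ifi204, -0.54 to 0.01 for Ifi35, -0.18 to 0.08 for Ifit1, -0.10 to 0.49 for Ifit2, -0.20 to 0.29 for Irf9, -1.43 to 0.17 for Isg20, -0.52 to 0.16 for Mx2, -0.22 to 0.06 for Oasl1, -0.33 to 0.09 for Oasl2, -0.45 to 0.16 for Parp14, -0.29 to 0.10 for Rtp4, -0.56 to 0.59 for Socs1, -0.51 to 0.16 for Stat2, -0.14 to 1.56 for Tlr9, -1.26 to 0.03 for Usp18, -0.79 to 0.07 for Xaf1 and -0.66 to 0.24 for Zbp1. The cause was not tested. With 2 arrays a group, the unadjusted 95% intervals of the antiviral genes reached from 0.45 to 1.09 to either side of the log2 fold change.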
